A study of Danio rerio with 14 samples.

Results

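The comparison described here is the effect of 2,3,7,8-tetrachlorodibenzo-p-dioxin (TCDD) on the transcripts of wild-type zebrafish embryos, across all genes. Its members are the 3 libraries titled wild type with TCDD (replicates 6, 7 and 8) and the 3 titled wild type with DMSO (replicates 2, 3 and 4), which are 6 of the 14 libraries of the series. All embryos carried the Tupfel longfin background. The control embryos received 0.01% DMSO, the carrier, and the exposed embryos 2 nM TCDD in that carrier, for 1 h from 6 h post-fertilization (hpf); they were rinsed and grown on without it to 72 hpf. The other 8 libraries are of an ahrra-null line, made with zinc finger nucleases, and serve here as a second set of embryos exposed the same way. The labels give neither the number of embryos nor the clutch of a library, so the p-values here rest on differences between libraries that could be technical replicates.

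TCDD binds the aryl hydrocarbon receptor (AHR), a cytosolic protein that then enters the nucleus, pairs with ARNT and switches on genes with AHR response elements in their control regions. Its best-known targets are cytochrome P450 enzymes of family 1, conjugating enzymes, and repressors that feed back on the receptor. In zebrafish the receptor ahr2 mediates most TCDD toxicity, which in larvae takes the form of heart malformation, poor circulation, oedema and a shortened jaw.

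Few genes were called with TCDD, in both directions. Their number ran from 82 to 388 with 1 library left out, so it does not measure how many genes changed. Of 21606 genes tested, 185 were called at an adjusted p under 0.05, or 0.856%; 104 of them (0.481%) were higher and 81 (0.375%) lower. At least 2-fold were 29 of the rises and 24 of the falls, and at least 4-fold 16 of the rises and 2 of the falls. The median log2 fold change was 0.685 for the genes that rose, −0.646 for those that fell and −0.00116 for all genes tested. All of these adjusted p-values are Benjamini-Hochberg values from edgeR's quasi-likelihood test. Values per library are CPM, read counts scaled to library size, in the order of replicates 2, 3 and 4 for DMSO and 6, 7 and 8 for TCDD, and log2 fold changes are given ± an approximate SE. CPM are not divided by gene length, so levels of different genes are not compared.

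**Figure D1:**
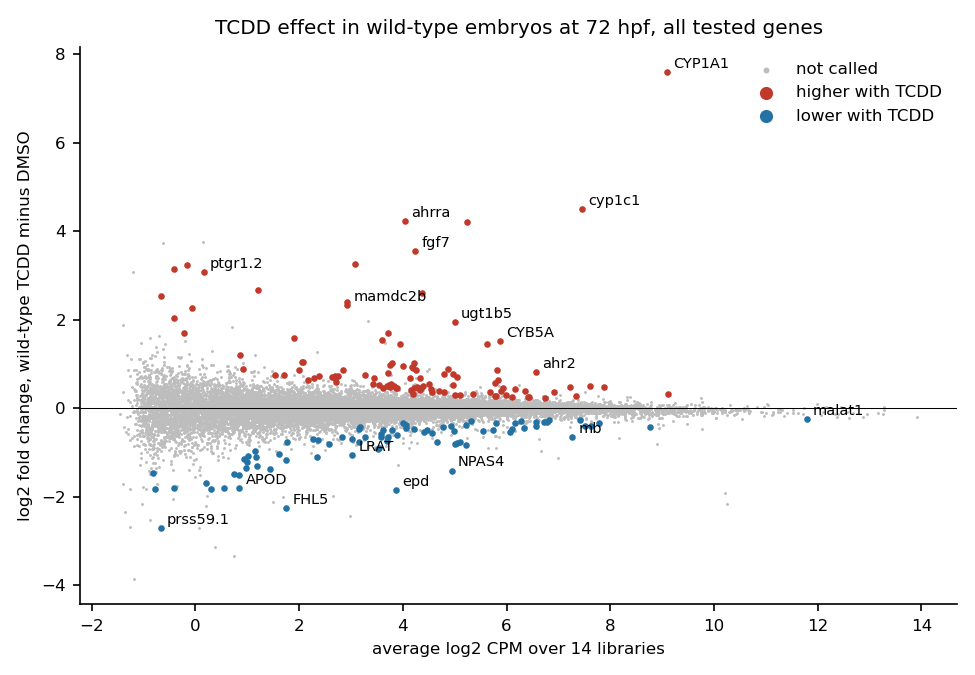
Log2 fold change of wild-type TCDD against DMSO embryos (vertical axis) against the average log2 CPM over 14 libraries (horizontal axis), 1 point per tested gene. The 104 genes called higher reach far from 0 at low and high expression, while the 81 called lower lie nearer to it.

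The libraries were of similar depth, between 18 and 23.1 M (mega) counts in wild type and from 16.9 M over the series. Transcripts of the main organs of a 72 hpf embryo were present: 40 of 44 heart muscle genes, 69 of 72 photoreceptor genes and 59 of 66 liver genes passed the filter on low counts. The wild-type DMSO libraries lay much farther apart than the TCDD libraries. Their biological coefficient of variation was 9.89% against 4.03%, with replicates 2 and 4 at opposite ends. The ahrra-null groups, of 4 libraries each, lay between these values, at 7.26% with DMSO and 6.73% with TCDD. How far results depend on the spread of the wild-type controls is given beside many of them and described at the end.

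Genes of drug metabolism and feedback genes of the receptor were among those that rose. Of the 30 AHR target genes tested, 14 rose, against 0.481% of all genes tested, and none fell. The list's median log2 fold change was 0.527. The list was written with earlier results of these data known, so its count of rises is no separate support. The family 1 cytochromes CYP1A1, CYP1B1, cyp1c1 and cyp1c2, monooxygenases that oxidise planar aromatic compounds, serve as a check of the exposure label. CYP1A1 stood at 6.61, 8.06 and 5.56 CPM with DMSO and at 1553, 1011 and 1337 CPM with TCDD. Every TCDD library stood above every DMSO library for each of these 4 genes.

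Past the cytochromes P450 the rises took in a cytochrome b5 and some enzymes of the next metabolic step. CYB5A, cytochrome b5, which can pass electrons to some cytochromes P450, stood at 39.5, 32.4 and 32.3 CPM with DMSO and at 110.1, 85.2 and 101.6 CPM with TCDD (log2 fold change 1.51 ± 0.20, adjusted p = 0.00509). The lowest TCDD library was above the highest control. Of 47 phase II conjugation genes tested, 4 rose and none fell, with a list median of 0.0623. ugt1b5, a UDP-glucuronosyltransferase, stood at 13.3, 13.4 and 14.5 CPM with DMSO and at 51.7, 52.6 and 54.2 CPM with TCDD (1.94 ± 0.12, adjusted p = 4.37e-08). It had the smallest adjusted p of all genes in the comparison, and its libraries were tight in both groups. Its relative ugt1b1 rose by 1.55 ± 0.21 (adjusted p = 0.00173) and the sulfotransferase sult6b1 by 1.44 ± 0.18 (adjusted p = 0.00291). The fourth, the glutathione transferase gstt1b, rose by 0.55 ± 0.12 (adjusted p = 0.0281), a call lost without DMSO replicate 3 or 4 or any of the TCDD replicates (adjusted p 0.0611 to 0.188).

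ptgr1.2, a gene of the prostaglandin reductase 1 family, was at 0.587, 0.408 and 0.108 CPM with DMSO and at 3.01, 1.74 and 4.71 CPM with TCDD (3.07 ± 0.48, adjusted p = 0.00322). It was scarce in all controls, and both groups spread widely without overlapping. cyp3a65, a family 3 cytochrome of intestine and liver, stood at 4.43, 3.93 and 3.19 CPM with DMSO and at 8.48, 6.47 and 8.78 CPM with TCDD (1.04 ± 0.21, adjusted p = 0.0206). Its call was lost without DMSO replicate 3 (adjusted p = 0.1), TCDD replicate 6 (0.115) or TCDD replicate 8 (0.109). None of 28 drug transporter genes, efflux pumps and uptake carriers together, was called, and the lowest p was that of the uptake carrier slco2b1 (log2 fold change −0.51, adjusted p = 0.112). None of 31 Nrf2 and oxidative stress genes was called either, their median being 0.0346, and gstp1.2 came nearest (0.37, adjusted p = 0.119). With 0.856% of all genes called, a list this short may well hold no call. The TCDD libraries lay all above the controls in 7 of the 31 and all below in 1, against 6.64% and 6.84% of all genes. In ahrra-null 3 of the 31 were called higher and none lower.

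The receptor and its repressors rose. Of 21 AHR pathway genes tested, 4 rose and none fell. ahr2 stood at 67.2, 70.9 and 66.4 CPM with DMSO and at 117.9, 127.7 and 116 CPM with TCDD (0.82 ± 0.07, adjusted p = 1.66e-07). Both groups of ahr2 values were compact and far apart. ahrrb, a repressor that competes with the receptor for ARNT, stood at 0.853, 0.816 and 0.648 CPM with DMSO and at 5.94, 3.70 and 5.08 CPM with TCDD (2.67 ± 0.34, adjusted p = 0.000298). Its paralog ahrra, the gene targeted in the other line, stood at 1.39, 0.612 and 0.81 CPM with DMSO and at 20.5, 14.1 and 17.8 CPM with TCDD. tiparp, an ADP-ribosyltransferase that acts on AHR as a brake, stood at 38.4, 46.4 and 44.1 CPM with DMSO and at 75.1, 58.8 and 65.7 CPM with TCDD (0.63 ± 0.11, adjusted p = 0.00764). All 4 calls held with each of the 6 wild-type libraries left out in turn.

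**Figure D2:**
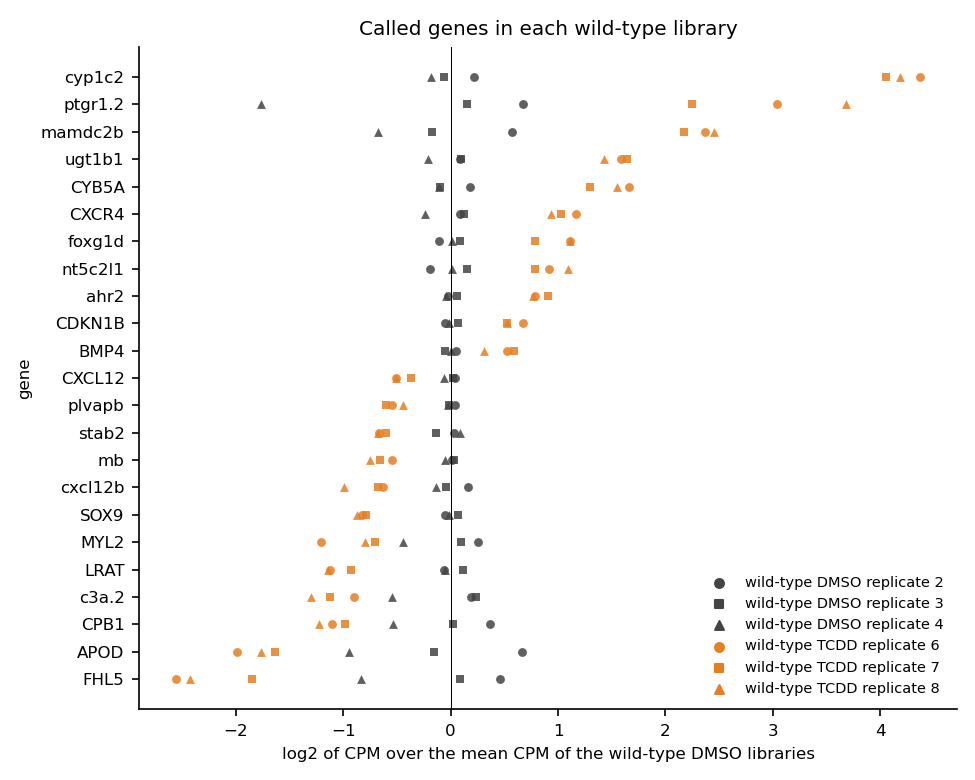
Log2 of CPM over the mean CPM of the wild-type DMSO libraries (horizontal axis) for 23 called genes (vertical axis), 1 point per library, black for DMSO and orange for TCDD. For each gene shown the 3 orange points lie on one side of the 3 black points; for FHL5, APOD, CPB1, c3a.2 and MYL2 DMSO replicate 4 is the control nearest to them.

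Of 65 signalling ligands and inhibitors tested, 3 rose and none fell (list median 0.0313), against 0.481% higher and 0.375% lower of all genes tested. fgf7, keratinocyte growth factor, was at 2.99, 3.83 and 2.38 CPM with DMSO and at 40.5, 33.2 and 34.9 CPM with TCDD. BMP4, a morphogen of heart, jaw and fin, stood at 16.7, 15.6 and 16.1 CPM with DMSO and at 23.2, 24.3 and 20.02 CPM with TCDD (0.48 ± 0.09, adjusted p = 0.00428). The BMP4 controls lay close together, all below the exposed libraries. wfikkn1, which in mammals codes for a protein that binds myostatin, rose by 2.03 ± 0.48 (adjusted p = 0.0468) from under 0.4 CPM, and its call was lost without any of the wild-type libraries in turn (adjusted p 0.0892 to 0.304).

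foxg1d, a forkhead transcription factor, stood at 8.26, 9.44 and 9.02 CPM with DMSO and at 19.3, 15.3 and 19.2 CPM with TCDD (1.01 ± 0.11, adjusted p = 1.05e-05). FOXQ1, of the same family, stood at 6.13, 5.97 and 4.70 CPM with DMSO and at 20.4, 15.5 and 18.3 CPM with TCDD (1.69 ± 0.28, adjusted p = 0.015). Neither gene's groups overlapped, but the FOXQ1 call was lost without DMSO replicate 2 or 3 or TCDD replicate 6 or 8 (adjusted p 0.057 to 0.0782). CDKN1B (ENSDARG00000029018), the cyclin-dependent kinase inhibitor p27, stood at 38.8, 42.2 and 39.8 CPM with DMSO and at 64.3, 58 and 58 CPM with TCDD (0.58 ± 0.09, adjusted p = 0.000781). It was the only riser among 35 p53 and apoptosis genes, and none of 61 cell cycle genes was called (median −0.0318).

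THBS3, LAMB1 and ccn2b, on no list and chosen after their values were seen, rose; elnb and DCN, which also code for matrix proteins, fell. THBS3 (ENSDARG00000012060), a thrombospondin of the extracellular matrix, stood at 45.3, 42 and 46.4 CPM with DMSO and at 88.5, 76.1 and 77.2 CPM with TCDD (0.86 ± 0.08, adjusted p = 9.51e-07). LAMB1 (ENSDARG00000045524), a laminin chain of basement membranes, stood at 21.2, 23.9 and 22.1 CPM with DMSO and at 41.1, 36.5 and 36.8 CPM with TCDD (0.77 ± 0.09, adjusted p = 2.21e-05). ccn2b, of the connective tissue growth factor family, rose by 0.88 ± 0.10 (adjusted p = 3.72e-05). None of these had overlapping groups. By rule, mamdc2b, a MAM-domain gene, stood at 2.83, 1.68 and 1.19 CPM with DMSO and at 9.80, 8.54 and 10.4 CPM with TCDD (2.33 ± 0.27, adjusted p = 0.000272), and ctsl.1, of the cathepsin L protease family, rose by 2.41 ± 0.27 (adjusted p = 0.000374).

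Of 22 chemokine genes tested, 4 rose and 3 fell, against 0.481% higher and 0.375% lower of all genes tested. Among the ligands, CXCL12, which guides migrating cells, stood at 75.9, 75 and 70.8 CPM with DMSO and at 52, 57.2 and 51.9 CPM with TCDD (−0.46 ± 0.06, adjusted p = 0.000227). The second copy, cxcl12b, stood at 38.3, 33.3 and 31.3 CPM with DMSO and at 22.1, 21.5 and 17.2 CPM with TCDD (−0.75 ± 0.13, adjusted p = 0.0085). For both ligands all TCDD libraries were below all controls.

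For each receptor of CXCL12, 1 of the 2 gene copies was higher. CXCR4 (ENSDARG00000057633), its signalling receptor, stood at 2.83, 2.91 and 2.27 CPM with DMSO and at 5.98, 5.44 and 5.08 CPM with TCDD (1.05 ± 0.17, adjusted p = 0.00106). ACKR3 (ENSDARG00000058179), the receptor that takes up and clears CXCL12, rose by 0.28 ± 0.06 (adjusted p = 0.0218), a call lost without any wild-type library but DMSO replicate 4 (adjusted p 0.0527 to 0.149). The other copies were not called: CXCR4 (ENSDARG00000041959) had a log2 fold change of −0.13 (adjusted p = 0.868) and ACKR3 (ENSDARG00000062478) one of 0.10 (adjusted p = 0.96). Outside this axis cxcl19 rose from at most 0.204 CPM with DMSO to at least 0.816 CPM with TCDD (3.15 ± 0.54, adjusted p = 0.00219), ccl34b.1 fell by 1.37 ± 0.24 (adjusted p = 0.0027), and CCR9 rose by 2.27 ± 0.42 (adjusted p = 0.00502), a call lost without DMSO replicate 3 (adjusted p = 0.0576).

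Of 40 heart muscle genes tested, 5 fell and none rose, against 0.375% lower and 0.481% higher of all genes tested. A negative log2 fold change was found in 34, and the median was −0.221, against −0.00116 for all genes tested. The heart list's median was −0.163 without DMSO replicate 2 and −0.314 without DMSO replicate 4. The list's mean log2 CPM was 3.42, 3.37 and 3.18 with DMSO and 3.05, 3.04 and 2.95 with TCDD. MYH6, a cardiac myosin heavy chain, stood at 91.9, 78.9 and 71.3 CPM with DMSO and at 49.8, 61 and 56.1 CPM with TCDD (−0.54 ± 0.09, adjusted p = 0.0058). The symbol does not say which zebrafish copy it is, so no heart chamber is assigned to it. nppa, atrial natriuretic peptide, stood at 2.72, 3.06 and 2.92 CPM with DMSO and at 0.806, 1.52 and 1.28 CPM with TCDD (−1.29 ± 0.22, adjusted p = 0.00202). The nppa controls lay close together and above all exposed libraries, and both calls held with each wild-type library left out. In ahrra-null nppa was called lower (−0.97 ± 0.18, adjusted p = 0.00546) and MYH6 was not (−0.17 ± 0.08, adjusted p = 0.463). The difference between the lines was called for neither nppa (adjusted p = 0.973) nor MYH6 (0.948). The heart list had 1 gene called lower in ahrra-null, none higher, and a median of −0.132. In whole embryos, fewer cells of a type and less RNA per cell cannot be told apart.

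The 3 other calls on the heart list rested on more of the libraries. TNNT2, cardiac troponin T, was listed under 2 IDs. The first, ENSDARG00000100694, fell by 1.48 ± 0.31 (adjusted p = 0.0138), and its call was lost without DMSO replicate 2 or TCDD replicate 6 or 8 (adjusted p 0.0914 to 0.125). The second, ENSDARG00000020610, fell by 0.69 ± 0.16 (adjusted p = 0.0272), with a call lost without DMSO replicate 2 or 3 or TCDD replicate 6 or 8 (adjusted p 0.0906 to 0.154). pln1, matched to the entry for phospholamban through a synonym, fell by 1.80 ± 0.41 (adjusted p = 0.0321), a call lost without any wild-type library but DMSO replicate 4 (adjusted p 0.058 to 0.182). By the rule for large changes, MYL2 (ENSDARG00000104722), a myosin light chain, fell by 0.90 ± 0.14 (adjusted p = 0.00209). The MYL2 call held without each wild-type library but was lost with the wild-type libraries fitted alone (adjusted p = 0.138). Its control values of 19.6, 17.6 and 12.1 CPM were lowest in replicate 4, and its TCDD values were 7.13, 10.11 and 9.47 CPM.

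Of 63 skeletal muscle genes, 2 fell, against 0.375% of all genes tested. A negative log2 fold change was found in 56, and the median was −0.141, against −0.00116 for all genes tested. The skeletal muscle median was −0.0831 without DMSO replicate 2 and −0.212 without DMSO replicate 4. The list's mean log2 CPM in DMSO replicate 4, 8.02, lay among the TCDD libraries at 7.97 to 8.05. mb, myoglobin, stood at 163.8, 165.7 and 156.7 CPM with DMSO and at 111.4, 103.2 and 96.1 CPM with TCDD (−0.65 ± 0.06, adjusted p = 1.29e-06). It had tight controls, and its call held without each wild-type library. mybpc2b, a fast myosin-binding protein, fell by 0.39 ± 0.08 (adjusted p = 0.0136), which was lost without DMSO replicate 3 or TCDD replicate 6 or 8 (adjusted p 0.0978 to 0.13). Of 31 smooth muscle genes 2 fell: FHL5, a LIM-domain protein, and MYH11 (ENSDARG00000009782), smooth muscle myosin. FHL5 stood at 7.52, 5.82 and 3.08 CPM with DMSO and at 0.933, 1.52 and 1.02 CPM with TCDD (−2.26 ± 0.32, adjusted p = 0.00169). Even its lowest control, replicate 4, was above the highest exposed library. The MYH11 call (−0.64 ± 0.13, adjusted p = 0.00984) was lost without DMSO replicate 3 or TCDD replicate 6 or 8 (adjusted p 0.0551 to 0.07). elnb, an elastin of the outflow tract in zebrafish, fell by 1.5 ± 0.28 (adjusted p = 0.00716), a call lost without DMSO replicate 3 or TCDD replicate 6 or 8 (adjusted p 0.0544 to 0.0843).

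In vessels, 3 of 33 endothelial genes fell and none rose, against 0.375% lower and 0.481% higher of all genes tested. The list median was 0.0021. stab2, a scavenger receptor of endothelium, stood at 17.3, 15.4 and 17.9 CPM with DMSO and at 10.6, 11.2 and 10.5 CPM with TCDD (−0.64 ± 0.10, adjusted p = 0.000776). plvapb, a protein of endothelial diaphragms, stood at 25.9, 24.9 and 24.8 CPM with DMSO and at 17.3, 16.6 and 18.6 CPM with TCDD (−0.53 ± 0.09, adjusted p = 0.00151). Controls of both genes varied little. In ahrra-null stab2 was called lower (−0.49 ± 0.09, adjusted p = 0.00329) and plvapb was not (−0.05 ± 0.08, adjusted p = 0.877). The difference between the lines was called for neither stab2 (adjusted p = 0.973) nor plvapb (0.695). The third, clec14a, fell by 0.43 ± 0.11 at an adjusted p of 0.0499, which rose to 0.083 to 0.248 without any wild-type library but DMSO replicate 4. Of 29 erythroid and globin genes only nt5c2l1, a nucleotidase gene on that list, was called. It stood at 10.08, 12.8 and 11.6 CPM with DMSO and at 21.8, 19.8 and 24.5 CPM with TCDD (0.93 ± 0.11, adjusted p = 1.25e-05).

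Skeletal and pigment genes moved singly and in both directions. Of 50 cartilage and jaw genes 2 rose and 1 fell. The 1 that fell was SOX9 (ENSDARG00000043923), a transcription factor that cartilage needs, at 47.9, 52.1 and 49.3 CPM with DMSO and 28.2, 28.8 and 27.19 CPM with TCDD (−0.83 ± 0.09, adjusted p = 4.03e-06). Its 6 values formed compact, separate groups. The risers were FOXQ1, above, and the cartilage matrix gene MATN4 (0.33 ± 0.07, adjusted p = 0.0149), whose call was lost without any wild-type library but DMSO replicate 4 (adjusted p 0.0523 to 0.122). The 2 calls among 24 bone and dermal matrix genes, OGN (ENSDARG00000044132) higher and DCN lower, were each lost without DMSO replicate 3 or TCDD replicate 6 or 8, among other libraries (highest adjusted p 0.144 for OGN and 0.26 for DCN).

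Of 34 pigment cell genes 2 rose and 2 fell, and the list median was 0.000163. gch2, which starts pteridine synthesis for yellow pigment, stood at 102.4, 112.7 and 125 CPM with DMSO and at 153.2, 155.8 and 166.1 CPM with TCDD (0.48 ± 0.07, adjusted p = 0.000374), and aox5, an aldehyde oxidase, rose by 0.54 ± 0.09 (adjusted p = 0.00137). All exposed gch2 libraries lay above all controls. pnp4a, a purine enzyme of iridophores, stood at 45.7, 39.3 and 45.8 CPM with DMSO and at 31.1, 30.1 and 29.8 CPM with TCDD (−0.52 ± 0.07, adjusted p = 0.000171). TYRP1 (ENSDARG00000029204), of melanin synthesis, fell by 0.34 ± 0.07 (adjusted p = 0.0136), a call lost without DMSO replicate 3 or any TCDD library (adjusted p 0.0525 to 0.089).

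Retinoid storage and the visual cycle were touched at 3 of 46 genes of retinoid handling. All of them were lower, against 0.375% lower of all genes tested. LRAT, which esterifies retinol for storage, stood at 9.17, 10.4 and 9.23 CPM with DMSO and at 4.41, 5.06 and 4.34 CPM with TCDD (−1.06 ± 0.13, adjusted p = 1.9e-05). The exposed libraries lay far below the controls, which were alike. rbp5, a cellular retinol-binding protein, fell by 0.33 ± 0.06 (adjusted p = 0.00648), which was lost without TCDD replicate 8 (adjusted p = 0.0742). rlbp1b, a retinaldehyde-binding protein, fell by 0.79 ± 0.16 (adjusted p = 0.042), lost without DMSO replicate 3 or TCDD replicate 6 or 7 (adjusted p 0.0761 to 0.173). Among 38 lens genes the membrane protein MIP (ENSDARG00000013963) alone fell (−0.31 ± 0.07, adjusted p = 0.022), with a call lost without any wild-type library but DMSO replicate 4 (adjusted p 0.0574 to 0.134).

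HSD11B2, which inactivates cortisol, stood at 25.5, 29.8 and 26 CPM with DMSO and at 17.8, 18.2 and 19.4 CPM with TCDD (−0.56 ± 0.09, adjusted p = 0.000752), a call kept without each wild-type library. prl, pituitary prolactin, fell by 1.04 ± 0.22 (adjusted p = 0.0174), lost without DMSO replicate 3 or TCDD replicate 6 or 8 (adjusted p 0.0912 to 0.107). NPAS4 (ENSDARG00000055752), a neuronal activity gene, stood at 27.08, 19.2 and 15.6 CPM with DMSO and at 5.05, 7.88 and 10.8 CPM with TCDD (−1.41 ± 0.26, adjusted p = 0.0341). Its values spread in both groups without overlap, and the call was lost without DMSO replicate 2 or 3 or TCDD replicate 6 or 7 (adjusted p 0.0711 to 0.111). JUN fell by 0.30 ± 0.06 (adjusted p = 0.0106), lost without DMSO replicate 3 or TCDD replicate 6 or 8 (adjusted p 0.0621 to 0.115); it and NPAS4 were the 2 calls among 45 immediate early genes. Of the other genes named for the size of their change, phka1b, a subunit of glycogen phosphorylase kinase, stood at 5.38, 4.59 and 5.08 CPM with DMSO and at 1.91, 1.96 and 2.84 CPM with TCDD (−1.17 ± 0.22, adjusted p = 0.00807), a call lost without TCDD replicate 6 (adjusted p = 0.0927) or 7 (0.0523). The amino acid transporter SLC38A11 fell by 1.35 ± 0.26 (adjusted p = 0.00756), lost without DMSO replicate 3 (adjusted p = 0.104) or TCDD replicate 6 (0.094). APOD (ENSDARG00000060350), apolipoprotein D, fell by 1.79 ± 0.37 (adjusted p = 0.033), lost without DMSO replicate 3 or any TCDD library (adjusted p 0.085 to 0.197). pdia2, a disulfide isomerase, fell by 1.80 ± 0.36 (adjusted p = 0.015), lost without DMSO replicate 2 or 3 or TCDD replicate 6 or 7 (adjusted p 0.0694 to 0.134). anpepla, an aminopeptidase gene, rose by 1.21 ± 0.26 (adjusted p = 0.0174), lost without DMSO replicate 3 or 4 or TCDD replicate 6 or 7 (adjusted p 0.0502 to 0.15). In epidermis krt94, a keratin, fell by 0.81 ± 0.11 (adjusted p = 0.00109), the 1 call among 41 genes.

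Genes of blood cells and of the nervous system gave scattered calls. Among 36 neutrophil and macrophage genes the protease gene npsn rose (0.40 ± 0.10, adjusted p = 0.0499) and MFAP4 (ENSDARG00000088745) fell (−0.97 ± 0.21, adjusted p = 0.0206). The npsn call was lost without any wild-type library but DMSO replicate 2 (adjusted p 0.0761 to 0.268), and that of MFAP4 without DMSO replicate 2 or 3 or TCDD replicate 6 or 7 (0.0906 to 0.144). ifitm1, an interferon-induced membrane protein and the only call among 25 interferon and acute phase genes, rose by 1.59 ± 0.31 (adjusted p = 0.0242), lost without DMSO replicate 3 or TCDD replicate 6 or 8 (adjusted p 0.0949 to 0.127). SLC6A4, the serotonin transporter, was the single call among 59 synaptic and neuronal genes (0.79 ± 0.14, adjusted p = 0.00648) and was lost without TCDD replicate 6 (adjusted p = 0.0564). epd, the secreted brain protein ependymin and the single call among 26 glial genes, stood at 33.7, 21.9 and 17.8 CPM with DMSO and at 5.005, 8.16 and 7.44 CPM with TCDD (−1.85 ± 0.33, adjusted p = 0.0325). Its controls spread widely above all exposed libraries, and the call was lost without any wild-type library but DMSO replicate 4 (adjusted p 0.0773 to 0.166).

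Of 59 liver genes tested, 55 had a negative log2 fold change and the median was −0.438, against −0.00116 for all genes tested. Called were 4 falls and 1 rise, cyp3a65, against 0.375% lower and 0.481% higher of all genes tested. The liver median was −0.229 without DMSO replicate 2 and −0.591 without DMSO replicate 4. TTR, which carries thyroid hormone, stood at 3.41, 3.01 and 1.08 CPM with DMSO and at 0.636, 0.87 and 0.856 CPM with TCDD (−1.68 ± 0.37, adjusted p = 0.0321). Replicate 4 was again the control closest to the exposed libraries, and the call was lost without any wild-type library but that replicate (adjusted p 0.0935 to 0.222). The same control was the nearest for GC, the vitamin D-binding protein (5.60, 5.25 and 2.92 CPM with DMSO; 2.12, 1.63 and 2.62 CPM with TCDD; −1.11 ± 0.23, adjusted p = 0.0139), and for the complement gene c3a.2 (−1.09 ± 0.22, adjusted p = 0.00984). The calls of GC, c3a.2 and hpda, an enzyme of tyrosine breakdown, were each lost without DMSO replicate 3, among other libraries (adjusted p 0.105, 0.0978 and 0.0782).

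In the exocrine pancreas 12 of 25 matched genes passed the filter on low counts. All 12 were negative, with a median of −1.11, and 2 fell, against 0.375% of all genes tested. At such low counts a gene can pass the filter through its controls alone, so the shared direction is no separate support. CPB1, carboxypeptidase B, stood at 10.02, 7.91 and 5.34 CPM with DMSO and at 3.61, 3.92 and 3.32 CPM with TCDD (−1.10 ± 0.17, adjusted p = 0.000852), and its call held without each library. prss59.1, of the trypsin family, fell by 2.71 ± 0.62 (adjusted p = 0.0362), a call lost without DMSO replicate 2 (adjusted p = 0.334) or TCDD replicate 6, 7 or 8 (0.094 to 0.177). The list's mean log2 CPM was 2.05, 1.44 and 0.581 in DMSO replicates 2, 3 and 4 and between 0.176 and 0.367 with TCDD. Its median was −0.66 without DMSO replicate 2 and −1.38 without DMSO replicate 4. In ahrra-null no gene of the list was called and the median was −0.214. The list's mean log2 CPM there was 0.547, 0.549, 0.541 and 0.226 with DMSO and 0.178 to 0.449 with TCDD.

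For several lists, liver, coagulation and complement, intestine, photoreceptors, oxidative phosphorylation and skeletal muscle among them, the mean of DMSO replicate 4 lay among or below those of the TCDD libraries. The mean log2 CPM of the liver list was 3.54, 3.23 and 2.76 with DMSO and 2.77, 2.74 and 2.75 with TCDD. For the 38 coagulation and complement genes it was 2.26, 2.17 and 1.77 with DMSO and 1.8, 1.76 and 1.8 with TCDD, and their median of −0.304 was −0.185 without DMSO replicate 2; c3a.2 was the 1 call. For the 37 intestine genes it was 2, 1.65 and 1.17 with DMSO and 1.43, 1.37 and 1.4 with TCDD; none was called, and the median of −0.186 turned to 0.0333 without DMSO replicate 2. For the 69 photoreceptor genes it was 5.2, 4.87 and 4.42 with DMSO and 4.51, 4.63 and 4.73 with TCDD. NR2E3, a rod transcription factor, was their only call (−0.50 ± 0.12, adjusted p = 0.0451), lost without any wild-type library but TCDD replicate 7 (adjusted p 0.059 to 0.261), and their median moved from −0.242 to −0.0782 without DMSO replicate 2 and to −0.42 without DMSO replicate 4. The part of the control spread in these list medians was not tested.

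**Figure D3:**
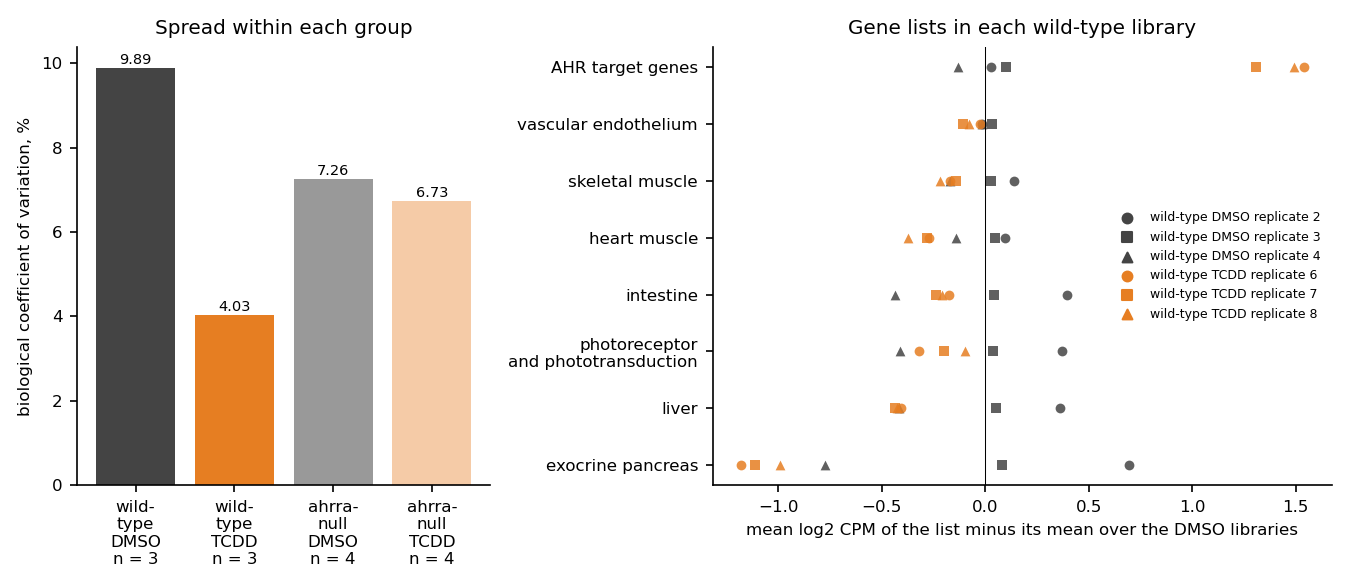
Left, the biological coefficient of variation in percent of each group fitted alone (bars from 0). Right, the mean log2 CPM of 8 gene lists in each wild-type library minus its mean over the DMSO libraries: AHR targets separate the groups, while for liver, intestine, photoreceptors and skeletal muscle DMSO replicate 4 falls among or below the TCDD libraries.

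With 0.856% of all genes called, a short list may well hold no call, so an empty list does not show that its genes stayed the same. Of the 46 lists, 15 had no called gene, and they held 574 tested genes between them. Besides those already named they were eicosanoid and prostaglandin, fin fold and dermal, endocrine pancreas, swim bladder and pronephros, circadian clock, hypoxia and glycolysis, heat shock and unfolded protein, fatty acid and lipid metabolism, oxidative phosphorylation, cytosolic ribosomal proteins, and germ and maternal stock. Their medians ran from −0.492, in the 7 germ and maternal genes, to 0.0479 in the fin fold genes. Of 75 ribosomal protein genes 74 had a negative log2 fold change, with a median of −0.0706. In 29 of them the TCDD libraries lay all below the controls and in 0 all above, against 6.84% and 6.64% of all genes. The list's mean log2 CPM was 9.56, 9.47 and 9.52 with DMSO and 9.47, 9.41 and 9.45 with TCDD, so the groups met at 9.47 as rounded. Of 60 oxidative phosphorylation genes 55 were negative, and their median of −0.0745 was −0.0221 without DMSO replicate 2. LPL, lipoprotein lipase, came closest to a call among the lipid genes (−0.25, adjusted p = 0.0569). Of the 185 calls, 117 were on no list.

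The spread among the controls had a direction. Replicates 2 and 3 differed by a root mean square of 0.179 on the log2 scale, 3 and 4 by 0.21, and 2 and 4 by 0.258, against 0.123 to 0.135 between TCDD libraries. The pair 2 and 4 differed as much as libraries of opposite groups did, at 0.201 to 0.251. On the first principal component of the wild-type libraries, with 33.7% of the variance, DMSO replicates 2, 3 and 4 stood at −32.2, −17.2 and 5.98 and the TCDD libraries at 13.2 to 16.6. On the second, with 24.8%, DMSO replicate 4 stood apart at −32.9 from the other 5, at −4.03 to 13.7.

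Photoreceptor genes were common among those that spread most between the controls. At an average log2 CPM of 3 or more there were 12815 genes, of which 84 ranged over 2-fold among the DMSO libraries and 7 among the TCDD libraries. Of the 84, replicate 2 was highest in 72, replicate 4 lowest in 74, and 1 was called. Of these 84, 21 were photoreceptor genes, 6 liver genes and 2 intestine genes. The photoreceptor list had 69 of the 21606 genes tested, a share that includes genes under this expression limit. How many genes of each list passed the limit is not given here. pde6ha, a cone phosphodiesterase subunit, stood at 219, 114 and 52.2 CPM with DMSO and at 58, 70.7 and 77.3 CPM with TCDD. opn1mw1, a green cone opsin, stood at 969, 662 and 332 CPM with DMSO and at 466, 553 and 640 CPM with TCDD. The clock repressor NR1D1 spread likewise, at 27.3, 17.9 and 6.32 CPM with DMSO and 12.9, 18.5 and 17.9 CPM with TCDD. The other 12 of the 15 widest were ponzr4, EGLN3, impg1a, grk1b, ponzr3, PRPH2 (ENSDARG00000014840), FKBP5, rbp3, ALDOC (ENSDARG00000057661), TNNI2 (ENSDARG00000045592), PDE6C and INA (ENSDARG00000011862); none of the 15 was called. For pde6ha, opn1mw1 and NR1D1 the exposed libraries lay inside the range of the controls. The ahrra-null DMSO libraries spread widely as well for pde6ha (14.7 to 41.8 CPM) and opn1mw1 (155 to 487 CPM), and less for NR1D1 (25.5 to 41.2 CPM). A wide range of photoreceptor genes was therefore not particular to the wild-type controls.

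The control nearest to the exposed libraries was not the same for falls and rises. Among the 81 genes that fell, DMSO replicate 4 was the control nearest to the exposed libraries in 59, replicate 2 in 16 and replicate 3 in 6. Among the 104 that rose the nearest was replicate 2 in 42, replicate 3 in 39 and replicate 4 in 23. Over all tested genes replicate 4 was the lowest control in 37.1% and the highest in 35.9%. Replicate 2 was lowest in 33.0% and highest in 35.3%, and replicate 3 in 29.9% and 28.8%. Whether replicate 4 limited the calls of lower genes was not tested here. Groups of CPM did not overlap in 104 of the 104 risers and 80 of the 81 fallers, against 6.64% above and 6.84% below, or 13.5% together, of all genes tested. The called genes were chosen for their difference between these same libraries, so their lack of overlap is no separate support.

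The count of calls depended on single libraries. With DMSO replicate 4 left out, 388 genes were called (118 higher, 270 lower), and 162 of the 185 calls were kept. Liver then had 19 genes lower and photoreceptors 9, against 4 and 1 with all libraries. Without DMSO replicate 2 the count was 140, with 115 kept, and without DMSO replicate 3 it was 89, with 86 kept. It was 82 without TCDD replicate 6, 127 without replicate 7 and 94 without replicate 8. With the 6 wild-type libraries fitted alone 143 genes were called, 91 higher and 52 lower. That fit kept 122 of the 185 calls, 79 of the rises and 43 of the falls. Among the named genes it lost MYL2, elnb, GC, SLC38A11, JUN, mybpc2b, DCN, pdia2, gstt1b and pln1. It also lost epd, APOD, TTR, NPAS4, rlbp1b, clec14a, prss59.1, npsn and ifitm1. The ahrra-null libraries enter through the shared estimate of spread: leaving out 1 of them gave 155 to 201 calls. The calls of epd, APOD, TTR, NPAS4, wfikkn1, rlbp1b, clec14a, OGN, prss59.1, NR2E3, npsn and ifitm1 were also lost without at least 1 of these libraries. A core of 65 genes kept the call without each of the 6 wild-type libraries, 41 higher and 24 lower. The family 1 cytochromes, ahr2, ahrra, ahrrb, tiparp, fgf7, ugt1b1, ugt1b5, CYB5A, sult6b1, BMP4, nppa, MYH6, FHL5, SOX9, LRAT, mb, stab2, plvapb, CXCL12 and cxcl12b belong to it.

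**Figure D4:**
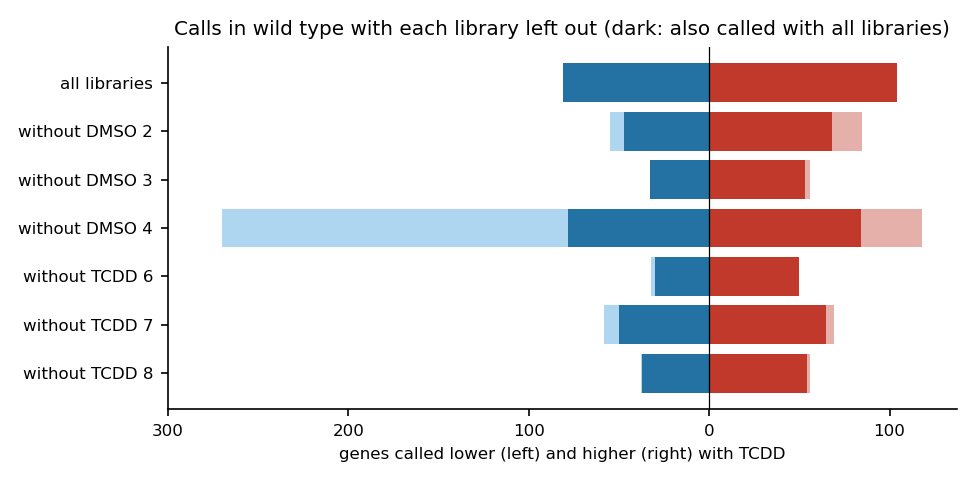
Genes called lower (left, blue) and higher (right, red) with TCDD in wild type, with all libraries and without each wild-type library, with the part also called with all libraries in the dark shade. The bar without DMSO replicate 4 reaches 270 lower genes against 81 with all libraries.

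The ahrra-null libraries gave values for the same genes in embryos the comparison above does not use. Of the 104 genes that rose in wild type, 103 had a positive log2 fold change in ahrra-null, where 51.3% of all genes did, and 70 (67.3%) were called higher there. Over all tested genes 1.18% were called in that line, 0.815% higher and 0.361% lower. Of the 81 that fell, 77 were negative in ahrra-null and 23 (28.4%) were called lower. MYH6 and plvapb, of the core above, were not among those 23 (adjusted p 0.463 and 0.877). The 70 shared rises were 39.8% of the 176 rises of the ahrra-null line, and the 23 shared falls 29.5% of its 78 falls. The size was smaller in ahrra-null for 67 of the 104 risers and 75 of the 81 fallers; since these genes were chosen for their wild-type size, a smaller value elsewhere carries no test.

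No gene passed the test of the difference between the effects of the 2 lines with edgeR, where 1117 genes, or 5.17%, had an unadjusted p under 0.05; DESeq2 called 8. The genes given next were chosen after their values were seen. nt5c2l1 stood at 18.2, 15.7, 17 and 18.2 CPM in ahrra-null with DMSO and 20.5, 23.8, 19.2 and 18.5 CPM with TCDD (difference of log2 fold changes −0.69 ± 0.14, adjusted p = 0.28). pnp4a, which fell in wild type, stood at 50.2, 56.7, 59.4 and 52.5 CPM and at 50.9, 53.3, 53.3 and 51.8 CPM (0.46 ± 0.09, adjusted p = 0.28). NPAS4 stood at 39.2, 46.5, 35 and 38.3 CPM and at 49.6, 46, 41.9 and 49.3 CPM (1.64 ± 0.32, adjusted p = 0.695). The ahrra-null groups overlapped for pnp4a and NPAS4 but not for nt5c2l1, and a difference between the lines was not called for any of the 3. LRAT was called lower in both lines, at 12.02, 11.09, 10.6 and 10.5 CPM with DMSO and 5.92, 5.39, 7.56 and 6.01 CPM with TCDD in ahrra-null (−0.83 ± 0.10, adjusted p = 3.89e-05).

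**Figure D5:**
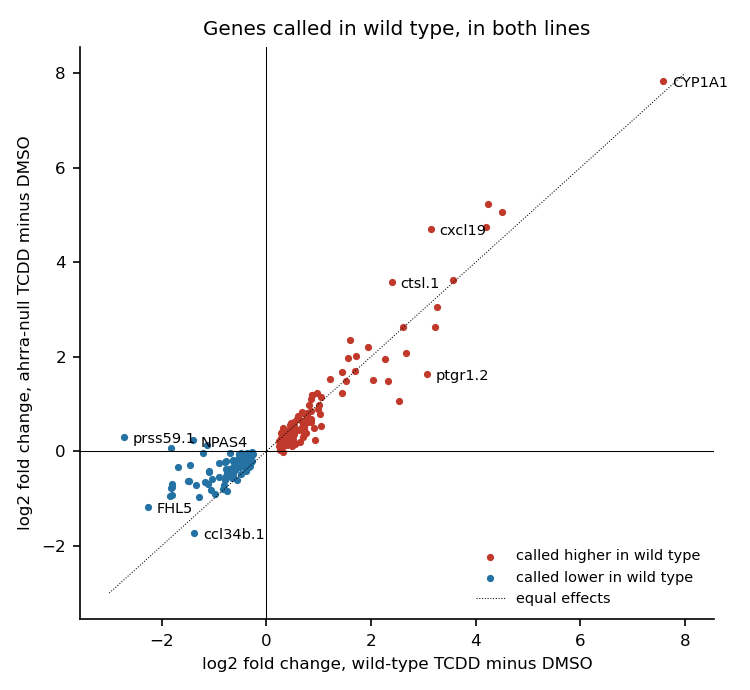
Log2 fold change of TCDD against DMSO in ahrra-null (vertical axis) against that in wild type (horizontal axis) for the 185 genes called in wild type, 1 point per gene, with a dotted line of equal effects. Risers (red) follow the line, and most fallers (blue) lie nearer 0 on the vertical axis than on the horizontal axis.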

How the data were processed

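Unstranded RNA-seq libraries of whole embryos were counted per Ensembl gene. The values are raw read counts as the authors deposited them; they were made on build GRCz10 with TopHat2 and HTSeq among the tools, per the submitters' processing notes, with versions and counting settings not given in the sources used here. Without strand, overlapping and antisense genes cannot be told apart, and close paralogs may share reads.

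Groups came from sample titles. From 32105 genes, filterByExpr (edgeR 4.0.16, R 4.3.3, minimum count 10) kept 21606 with 99.9% of counts. A quasi-likelihood model with TMM scaling was fitted to all 14 libraries in 4 groups, and a gene was called where its p, adjusted by Benjamini-Hochberg over all tested genes, was under 0.05. The SE is approximate: the size of the log2 fold change over the root of F. The spread of a group is edgeR's common biological coefficient of variation for that group alone.

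Symbols matched 26269 IDs; those in capitals or shared by several IDs follow the table. Of 1889 entries on 46 gene lists, 1354 matched by symbol, 229 by synonym and 190 without a paralog letter, a step added after the files were read, and 116 did not match. The genes and lists were chosen with earlier results of these data known. The rule for named genes takes the 20 largest rises and falls with a proper symbol and an average log2 CPM of at least 0, called list members, for uncalled lists up to 3 members of smallest p, the 15 genes of widest control range, and ahrra, ahrrb and ahr2. No promoter sequences were at hand, so a planned motif description was not run. Alternatives were other scalings and filters, DESeq2 1.42.0, limma 3.58.1 voom with weights per library or per group, the contrast's libraries alone, 1 surrogate variable (sva 3.50.0) and each library left out.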

Additional observations from a re-analysis of the deposited data

Results flagged for a closer look

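A single library value stood away from its group by a gap test (Dixon's, at the 95% limit for 4 samples). The mean log2 CPM of the exocrine pancreas list was 0.226 in ahrra-null DMSO replicate 12 and 0.541 to 0.549 in the 3 other libraries of that group, a gap of 0.977 of the range. Chance flags about 1 in 20 groups. The groups of 3 wild-type libraries are too small for this test.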

How the results depend on the processing

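The wild-type count of 185 was within 1.5 times under median-ratio and upper-quartile scaling, DESeq2, voom with a weight per group, both other filters and the contrast's libraries alone. It was 381 with voom weights per library and 368 with 1 surrogate variable, and ran from 82 to 388 with 1 library left out. DMSO replicate 4 gave the highest count; DMSO replicate 3 and TCDD replicates 6 and 8 gave counts under 100. With median-ratio scaling 100 genes rose and 89 fell; with DESeq2, 123 and 124; with voom weights per library, 159 and 222. In all 23 alternatives 64 genes kept the call. The ahrra-null count of 254 was 396 with 1 surrogate variable and 141 to 374 with 1 library left out. The count for the difference between lines, 0, was 8 with DESeq2, 6 with voom weights per library, 1 with weights per group and 0 to 10 with 1 library left out. The cause of these changes was not tested. None of the 185 called genes reversed its direction with 1 library left out, and 39 of the 79 called named genes kept the call in all 23 alternatives. Uncalled named genes are not covered by that statement. For NR1D1, for example, the wild-type controls lay on both sides of the TCDD libraries. The control coefficient of variation was 7.33 to 12.6% with 1 control left out and the TCDD one 3.64 to 4.24%; these alternatives were chosen after seeing the data. Depth limits genes under about 1 CPM. No paired analysis was run, because the groups share no replicate numbers and the labels do not say whether libraries were paired.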

Other observations

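Of the genes not called, 110 had a log2 fold change beyond 1 in either direction, 38 higher and 72 lower. Of the 72, 40 fell in the order of DMSO replicates 2, 3 and 4, and 46 ranged over 2-fold among the controls. The following genes were chosen after their values were seen. rn7sl1, the RNA of the signal recognition particle, stood at 34.7, 15.5 and 2.43 CPM in DMSO replicates 2, 3 and 4 and at 4.83, 2.28 and 2.35 CPM in TCDD replicates 6, 7 and 8 (−2.43 ± 0.86, adjusted p = 0.416). In the ahrra-null DMSO libraries it ranged from 3.31 to 16.1 CPM. zgc:158463 stood at 5312, 2456 and 571 CPM with DMSO and at 834, 525 and 505 CPM with TCDD (−2.16 ± 0.74, adjusted p = 0.382). si:dkey-153m14.1 stood at 4711, 2225 and 635 CPM with DMSO and at 913, 621 and 475 CPM with TCDD (−1.91 ± 0.71, adjusted p = 0.453). In all 3 genes replicate 2 was the highest control and replicate 4 the lowest, the same order as for the exocrine pancreas, liver, intestine and photoreceptor lists. Their part in the spread of the controls was not tested.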
